A study of Xenopus laevis with 18 samples.

Results

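Explants of the lateral marginal zone of Xenopus laevis gastrulae that carried the label RA-depleted were compared at early neurula and at mid-gastrula, on 3 arrays per stage, 6 of the 18 arrays of the series. The arrays were chosen by their deposited titles alone. The lateral marginal zone is the flank of the gastrula, from which lateral mesoderm and the precursors of the pronephros, the first kidney, arise. Embryos of the RA-depleted label had received GFP mRNA together with cyp26 mRNA, injected around the equator into all 4 blastomeres of the 4-cell stage, and embryos of the control label had received GFP mRNA alone. All explants were cut at early gastrula. Early neurula explants were cultured overnight at 14 °C and mid-gastrula explants for 3 h at 20 °C, so stage, culture time and culture temperature cannot be told apart. The labels call the 3 arrays of a group biological replicates, without saying what arrays of 1 number have in common. The series title puts the question of which genes retinoic acid (RA) targets in lateral mesoderm. The comparison described here shows what changed with stage under the RA-depleted label.

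During gastrulation the marginal zone is specified as mesoderm by Nodal, FGF and Wnt signals acting through T-box and Mix-type transcription factors, and by neurulation its cells have taken on fates such as somitic muscle, kidney field and blood. The Hox genes, which give cells their position along the head-to-tail axis, are switched on in the same period. RA is made from vitamin A by aldehyde dehydrogenases such as aldh1a2, acts through nuclear receptors, and is broken down by the cyp26 enzymes.

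Levels are log2 intensities of a probe set relative to the median of its array, and a difference is the mean of the early neurula arrays minus that of the mid-gastrula arrays on that scale. A level under the lower quartile of the arrays of its stage is called dim here. A fold against a dim level depends on that floor. The suffixes .L and .S mark the 2 homeologs of a gene in this allotetraploid frog, and probes of one homeolog may also bind the other. Arrays of the same stage correlated at 0.987 to 0.993 across probe sets, and arrays of different stages at 0.907 to 0.92.

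The brightest probe set of cyp26a1.S went against the labels. For this homeolog of the RA-degrading enzyme it averaged 3.63 ± 0.49 at early neurula and 2.91 ± 0.13 at mid-gastrula in explants labelled RA-depleted. In explants labelled control it averaged 7.77 ± 0.25 and 8.27 ± 0.16 at the same stages (SD, n = 3 each). The signal of that probe set was thus far higher in the arrays labelled control. A further, less bright probe set of cyp26a1.S went the other way at early neurula and at mid-gastrula. It had 0.95 ± 0.67 and 0.21 ± 0.37 under the RA-depleted label against -0.42 ± 0.27 and -1.17 ± 0.25 under the control label. Cyp26a1.L was higher under the RA-depleted label, with 4.89 ± 0.72 and 4.54 ± 0.41 against 3.37 ± 0.44 and 2.56 ± 0.29 under the control label. Whether these cyp26a1 probe sets read the injected cyp26 mRNA or the embryo's own transcript was not tested. The retinal reductase dhrs3.L was also higher under the RA-depleted label. It had 5.28 ± 0.22 and 4.49 ± 0.27 at early neurula and mid-gastrula, against 2.31 ± 0.42 and 3.04 ± 0.33 under the control label. The arm is named by its label throughout. The change with stage within the arm keeps its sign if the labels of the arms were exchanged, and the difference of that change between the arms would turn its sign.

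Most of the transcripts measured differed between the stages. Of 32475 probe sets tested, 19163 passed in limma's test (Benjamini-Hochberg adjusted p below 0.05), of which 10682 were higher at early neurula (32.9% of those tested) and 8481 were lower (26.1%). The excess of higher calls turned under repeated quantile normalization, with 9102 higher and 9784 lower, and after a filter on dim probe sets, with 6339 higher and 6639 lower. Among the 11303 genes with a symbol, each given by its brightest probe set, 3595 rose (31.8%) and 3559 fell (31.5%). A change of at least 2-fold was called up for 1224 genes (10.8%) and down for 1560 (13.8%). The median difference over all genes was 0.02. These shares are the background against which the counts below are to be read: a list with about 31.8% of its genes higher and 31.5% lower looked like the array as a whole.

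**Figure D1:**
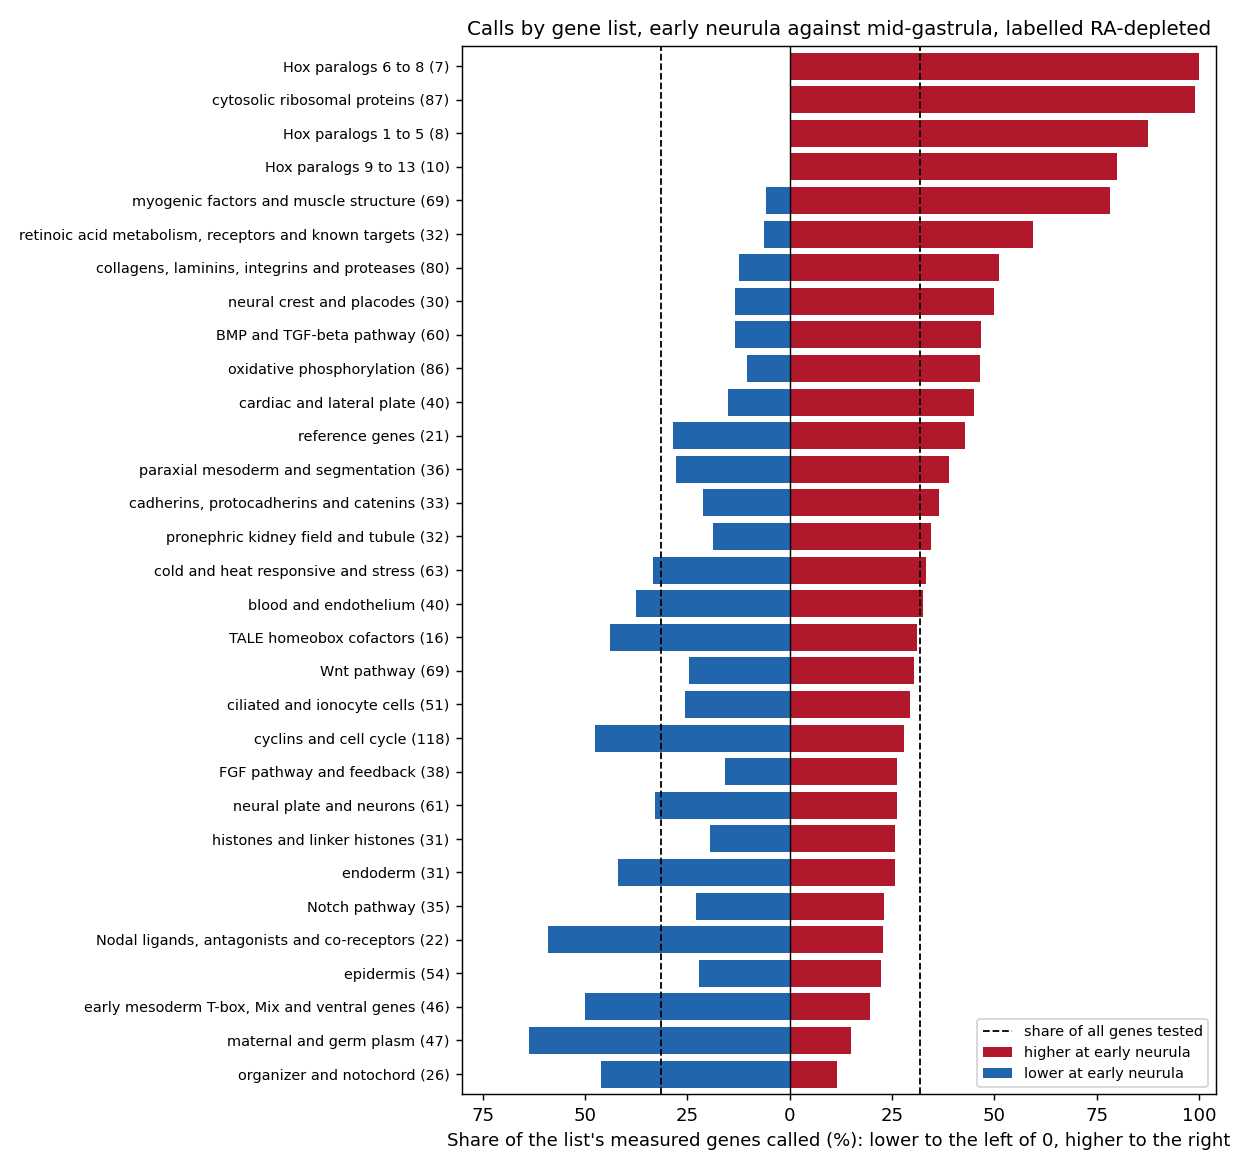
Share of the measured genes of each of 31 gene lists that was called higher (right of 0) or lower (left of 0) at early neurula against mid-gastrula in explants labelled RA-depleted, in percent, with the number measured in brackets. Dashed lines mark the shares over all genes, 31.8% and 31.5%; ribosomal protein, Hox and muscle lists lie farthest to the right, and maternal and Nodal lists reach farthest to the left.

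Skeletal muscle genes gave the largest differences on the array. Of 69 measured genes for myogenic factors and muscle structure, 54 were higher at early neurula and 4 lower, with a median difference of 1.53, and 38 rose by at least 2-fold. Myh4.L, a fast myosin heavy chain, read 7.15, 6.72 and 7.37 at early neurula and -2.05, -2.28 and -2.27 at mid-gastrula. Mylpf.L, a fast myosin regulatory light chain, read 6.66, 6.60 and 7.13 at early neurula and -2.29, -2.34 and -2.13 at mid-gastrula. In both, every early neurula array was bright and every mid-gastrula array was dim. The differences were 9.28 (SE 0.30, adjusted p = 4.77e-12) for myh4.L and 9.05 (SE 0.28, adjusted p = 3.41e-12) for mylpf.L. In bulk RNA of this kind, more cells of a type and more RNA per cell cannot be told apart.

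Further parts of the contractile apparatus followed the same pattern. Myl1.S, an alkali myosin light chain, had 6.57, 6.68 and 6.73 at early neurula against -1.08, -1.19 and -0.94 at mid-gastrula, a difference of 7.73 (SE 0.23, adjusted p = 2.71e-12). Its mid-gastrula level lay below the array median, and the difference is 212-fold. Troponin C (tnnc2.S) was higher by 7.68, the thin-filament regulator tropomyosin (tpm1.L) by 6.43, and desmin (des.1.L), the muscle intermediate filament protein, by 8.05. Smyd1.L and klhl41.L, which are needed for myofibril assembly and upkeep, were higher by 6.62 and 6.38. Srl.L, a calcium-binding protein of the sarcoplasmic reticulum, and ak1.L, the cytosolic adenylate kinase of muscle, were higher by 6.60 and 6.59. The other genes among the 15 largest rises were MGC75582.S (9.04), MGC75582.L (8.76), hrg.L (7.19), LOC446267 (6.94) and XB5947952.S (6.38). Of these 15 genes, 13 were dim at mid-gastrula. Actc1.L, the alpha-actin of embryonic striated muscle, had 8.08, 8.10 and 8.14 at early neurula against 3.62, 3.51 and 4.18 at mid-gastrula, where it was already bright. Its difference was 4.34 (SE 0.25, adjusted p = 1.26e-09), a 20.2-fold change.

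The factors that direct muscle fate moved in both directions. Myod1.L, the myogenic determination factor, had 2.76, 3.14 and 3.03 at early neurula against 1.22, 1.41 and 1.5 at mid-gastrula, and its homeolog myod1.S had 4.2, 4.66 and 4.38 against 2.95, 3.22 and 3.37. The stages did not overlap for either, and the differences were 1.6 (SE 0.41, adjusted p = 0.00331) and 1.23 (SE 0.31, adjusted p = 0.00341). Myf5.L, which acts with myod1 in early muscle precursors, fell, with 2.17, 3.35 and 1.75 at early neurula against 4.57, 4.65 and 4.59 at mid-gastrula (difference -2.18, SE 0.36, adjusted p = 0.000103). The other muscle list members named as lower were myoz1.S, dim at both stages with a difference of -0.34, and atp2a1.S, the fast calcium pump of the sarcoplasmic reticulum. The brightest probe set of atp2a1.S was lower by 0.66 and a further probe set of the same gene was higher by 6.70, so that gene has no settled direction.

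**Figure D2:**
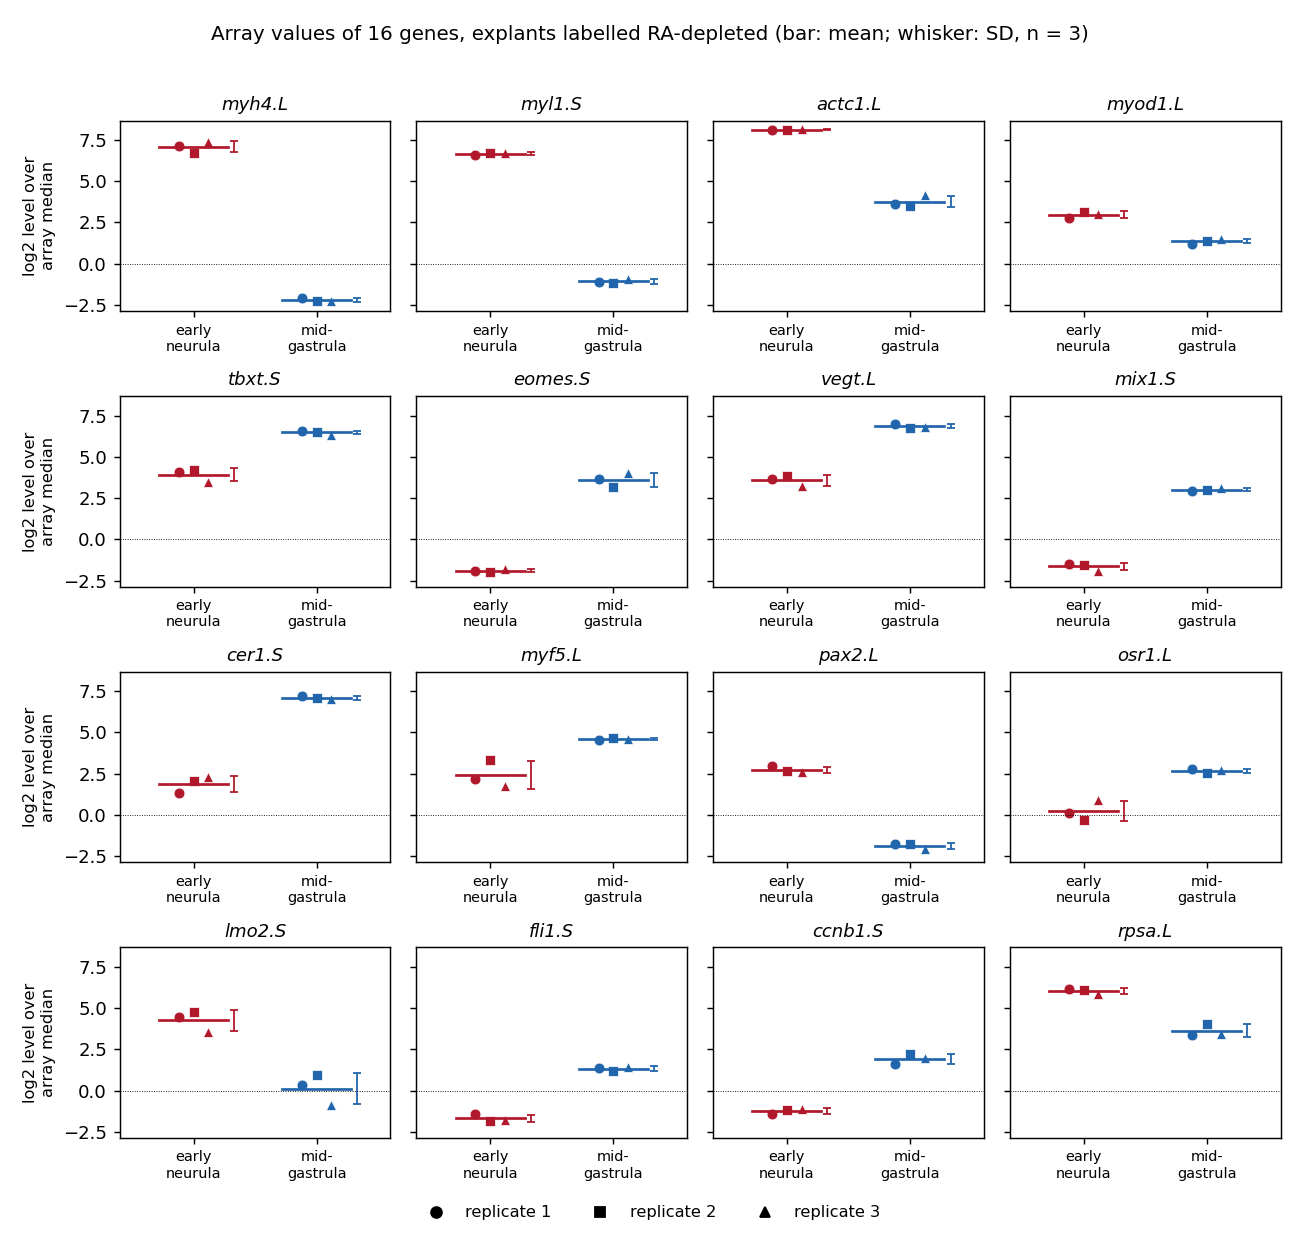
Level of 16 genes on each array (log2 over the array median), early neurula in red on the left and mid-gastrula in blue on the right of each panel, with the mean as a bar, the SD as a whisker (n = 3) and a marker shape per replicate number. The muscle genes in the top row lie higher at early neurula, and tbxt.S, eomes.S, vegt.L, mix1.S, cer1.S and myf5.L lie lower, with no overlap between the stages in any panel.

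Genes of mesoderm specification were more often lower than higher. Of 46 measured genes of the early mesoderm list (T-box, Mix-type and ventral genes), 23 were lower at early neurula and 9 higher, with a median difference of -0.77. Without early neurula array 3, whose values are set out with the Hox genes, 22 were lower and 9 higher and the median was -0.33. Eomes, a T-box factor of mesendoderm, gave the largest falls: eomes.S had -1.94, -1.96 and -1.78 at early neurula against 3.63, 3.18 and 3.99 at mid-gastrula, and eomes.L had -0.54, -0.41 and -0.10 against 4.21, 4.21 and 4.54. Eomes.S was dim at early neurula. The differences were -5.49 (SE 0.17, adjusted p = 4.07e-12) and -4.67 (SE 0.15, adjusted p = 5e-12).

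The other T-box factors of the panel remained above the array median at early neurula. Vegt.L, which specifies endoderm and mesoderm, had 3.65, 3.84 and 3.23 at early neurula against 7.01, 6.76 and 6.81 at mid-gastrula, a difference of -3.29 (SE 0.15, adjusted p = 1.29e-10), and vegt.S was lower by 3.39. Tbxt.S (brachyury), a factor of posterior mesoderm and notochord, had 4.11, 4.18 and 3.49 against 6.55, 6.53 and 6.34, a difference of -2.55 (SE 0.22, adjusted p = 8.81e-08). Tbxt.L had 4.45, 4.62 and 2.86 at early neurula against 6.32, 6.19 and 5.92 at mid-gastrula (difference -2.17, SE 0.39, adjusted p = 0.000204). For both brachyury homeologs array 3 was the lowest of the early neurula arrays. The Mix-type homeobox genes, which act downstream of Nodal in mesendoderm, fell further: mix1.S was lower by 4.65, mixer.S by 4.63, bix1.1.L by 4.07, mixer.L by 3.55 and mix1.L by 3.44. Mix1.S and bix1.1.L were dim at early neurula.

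Wnt8a.L, the ventrolateral Wnt ligand of the gastrula, had 4.82, 5.21 and 4.82 at early neurula against 6.53, 6.23 and 6.1 at mid-gastrula, a difference of -1.34 (SE 0.17, adjusted p = 5.36e-06). Msgn1, a factor of presomitic mesoderm, was called on 1 homeolog only. Msgn1.L had 4.85, 5.11 and 3.22 at early neurula against 6.04, 5.95 and 5.44 at mid-gastrula (difference -1.42, SE 0.39, adjusted p = 0.00561). Msgn1.S had 4.45, 4.59 and 2.72 against 4.96, 4.81 and 4.59 (difference -0.87, SE 0.41, adjusted p = 0.0793, and 0.0482 with the replicate number as a block). The members of this list that rose included the caudal factor cdx4.L, higher by 1.18, and the somite segmentation factors mespa.S and mespa.L, higher by 2.47 and 1.33.

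Nodal pathway genes and their antagonists were lower in most cases. Of 22 measured genes 13 fell and 5 rose, with a median of -1.03. Cer1.S, the secreted Nodal, BMP and Wnt antagonist cerberus, had 1.32, 2.04 and 2.27 at early neurula against 7.23, 7.07 and 7.01 at mid-gastrula, a difference of -5.22 (SE 0.20, adjusted p = 2.37e-11). Tdgf1.3.L, a Cripto-type co-receptor for Nodal, was lower by 3.44, and the TGF-beta ligand gdf3.S was lower by 2.99. A second Cripto-type gene, tdgf1.2.S, went the other way, with 2.67, 2.56 and 3.00 at early neurula against 0.69, 0.60 and 0.42 at mid-gastrula (difference 2.18, SE 0.13, adjusted p = 1.95e-09). The signal transducers smad2.L and smad2.S were higher by 0.64 and 0.52.

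Of 26 measured organizer and notochord genes 12 were lower and 3 higher, with a median of -0.94. Gsc.S, the homeobox gene goosecoid of the dorsal organizer, was lower by 2.35 and gsc.L by 1.83. The secreted Wnt antagonists frzb.S and dkk1.S were lower by 4.73 and 2.33. The 3 that rose were col2a1.L, the type II collagen of the notochord sheath, with 3.69, 3.45 and 3.95 at early neurula against -2.24, -2.54 and -2.20 at mid-gastrula (difference 6.02, SE 0.23, adjusted p = 2.77e-11), shh.L, the Hedgehog ligand (difference 2.5, SE 0.35), and nog.L, the BMP antagonist noggin (difference 1.39, SE 0.21). All 3 were above the array median on each early neurula array. Of 31 measured endoderm genes 13 fell and 8 rose, with a median of -0.12. Among those that fell were cer1.S and mixer, which that list shares with others. The rising members named were gata5.S (1.91), foxa1.S (1.32) and darmin.L (1.46), a peptidase of embryonic endoderm. The homeolog gata5.L was not called (0.08, adjusted p = 0.847), and foxa1.L was higher by 0.79 with stages that overlapped.

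Paraxial mesoderm and segmentation genes were called in both directions, at shares near the background. Of 36 measured 14 were higher (38.9%) and 10 lower (27.8%), with a median of 0.24. Without early neurula array 3 these were 14, 8 and 0.37. Tcf15.L, a somite factor, had 3.46, 3.15 and 2.90 at early neurula against 0.20, -0.01 and 0.60 at mid-gastrula (difference 2.91, SE 0.24, adjusted p = 5.69e-08), and ripply2.1.S, which sets segment borders, was also higher by 2.52. The largest falls were those of the Hes-type repressor hes7.1.L (-2.56), the Wnt enhancer rspo2.L (-2.33) and the forkhead factor foxc1.L (-1.55).

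Kidney field genes rose about as often as the background and fell less often than it. Of 32 measured 11 rose (34.4%) and 6 fell (18.8%), with a median of 0.23. Pax2.L, a transcription factor of the pronephros, had 2.94, 2.66 and 2.62 at early neurula against -1.76, -1.74 and -2.07 at mid-gastrula, where it was dim (difference 4.60, SE 0.13, adjusted p = 2.22e-12). Wnt4.L and hey1.S, which act in nephron patterning, were higher by 2.04 and 2.5. Osr1.L, an early factor of intermediate mesoderm, fell, with 0.13, -0.32 and 0.88 at early neurula against 2.77, 2.52 and 2.73 at mid-gastrula (difference -2.44, SE 0.25, adjusted p = 5.39e-07). Pax8.L and lhx1.L, factors of the early kidney field, were not called by their brightest probe sets. Pax8.L had -0.94, -1.31 and -1.47 at early neurula against -1.54, -1.64 and -1.44 at mid-gastrula (difference 0.30, SE 0.14, adjusted p = 0.0707). Lhx1.L had 3.49, 3.00 and 3.61 against 4.01, 3.84 and 4.07 (difference -0.60, SE 0.27, adjusted p = 0.0706). With the replicate number as a block both passed, at adjusted p = 0.0332 for pax8.L and 0.0415 for lhx1.L. Further probe sets of both were called without the block. One of lhx1.L had 0.89, 0.17 and 0.78 at early neurula against 1.65, 1.56 and 1.70 at mid-gastrula, with no overlap (difference -1.02, SE 0.16, adjusted p = 5.81e-05), and another of lhx1.L differed by 0.12 (adjusted p = 0.331). One of pax8.L was higher by 0.29 (SE 0.11, adjusted p = 0.0373).

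In the cardiac and lateral plate list 18 of 40 genes rose and 6 fell, with a median of 0.33. Tbx3.S and tbx1.L, T-box factors of heart and pharyngeal tissue, were higher by 3.09 and 3.06. Gata4.S, a GATA factor of heart and endoderm, fell by 3.11. Gata4.L had 2.32, 2.13 and 4.52 at early neurula against 4.47, 4.56 and 4.79 at mid-gastrula, so 1 early neurula array reached the mid-gastrula range (difference -1.62, SE 0.46, adjusted p = 0.00696). With only the 6 RA-depleted arrays in the fit its adjusted p was 0.0546.

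Blood and endothelial genes moved in both directions, at shares near the background. Of 40 measured 13 rose (32.5%) and 15 fell (37.5%), with a median of -0.04. Lmo2.S, a cofactor of the blood and vessel transcription complex, had 4.45, 4.77 and 3.55 at early neurula against 0.32, 0.93 and -0.88 at mid-gastrula (difference 4.13, SE 0.50, adjusted p = 3.75e-06). Gata2.L, a factor of blood precursors and ventral ectoderm, had 4.95, 4.88 and 5.32 against 3.94, 3.60 and 3.52 (difference 1.36, SE 0.21, adjusted p = 3.8e-05). The Ets factor fli1.S fell by 3.02, the VEGF receptor flt1.S by 2.88 and the vascular Kruppel-type factor klf2.S by 3.25, all to dim levels at early neurula. Tal1.S, the blood-forming partner of lmo2, was dim at both stages with a difference of 0.05 (SE 0.09). The globin hba3.L was higher by 1.93 from a dim level at mid-gastrula.

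Hox genes rose almost without exception. All 7 measured genes of paralogs 6 to 8 were higher at early neurula, 7 of 8 of paralogs 1 to 5 and 8 of 10 of paralogs 9 to 13, and none was called lower. The medians were 3.93 for paralogs 1 to 5, 3.15 for paralogs 6 to 8 and 1.45 for paralogs 9 to 13. The genes not called were hoxb5.S, hoxa11.S and hoxc12.L, named here for that reason, with differences of -0.14, 0.13 and 0.20. Hoxa3.S, an anterior gene, had 3.45, 2.99 and 2.73 at early neurula against -2.07, -2.13 and -1.99 at mid-gastrula, where it was dim (difference 5.12, SE 0.16, adjusted p = 3.41e-12). Hoxc6.S, a trunk gene, had 4.68, 4.70 and 3.71 against 1.15, 2.0 and 0.51 and was thus above the array median at both stages (difference 3.15, SE 0.42, adjusted p = 1.05e-05). Hoxb9, a posterior gene whose symbol carries no homeolog suffix, had 4.81, 4.87 and 3.40 at early neurula against -1.69, -0.93 and -1.73 at mid-gastrula (difference 5.81, SE 0.33, adjusted p = 1.12e-09), the largest difference of any Hox gene measured.

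Early neurula array 3 stood apart from the other two in the Hox genes. It gave the lowest early neurula value for 17 of 17 Hox genes of paralogs 6 to 13 and for 8 of 8 of paralogs 1 to 5, against 4414 of 11303 genes overall. Hoxc10.L had 3.05, 2.84 and 0.50 on the 3 early neurula arrays, against -0.90, -0.39 and -1.87 at mid-gastrula. Its difference was 3.18 (SE 0.54, adjusted p = 0.000122). Hoxc8.S and hoxa7.L were split in the same way, with 4.44, 4.25 and 2.73 and with 5.27, 5.41 and 3.54 at early neurula. Replicate 3 was also lowest at mid-gastrula for 14 of the 17 genes, and among control early neurula arrays for 16 of the 17. The array was not apart in the Hox genes alone: it was also lowest for 32 of 46 genes of the early mesoderm list, 29 of 36 of the segmentation list, 79 of 87 ribosomal protein genes and 49 of 86 genes of oxidative phosphorylation, and it was highest for 18 of 26 organizer and notochord genes. Replicate 3 was likewise lowest for 68 of 87 ribosomal protein genes at mid-gastrula and for 76 of 87 on control early neurula arrays. It was highest there for 20 and 18 of 26 organizer genes. In the early mesoderm list it was lowest for 21 and 28 of 46, and in the segmentation list for 18 of 36 in each. Without early neurula array 3, and with mid-gastrula array 3 kept, the Hox counts were the same, and the medians were 4.14, 3.47 and 2.17. What array 3 shared with the other arrays of its number was not tested.

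**Figure D3:**
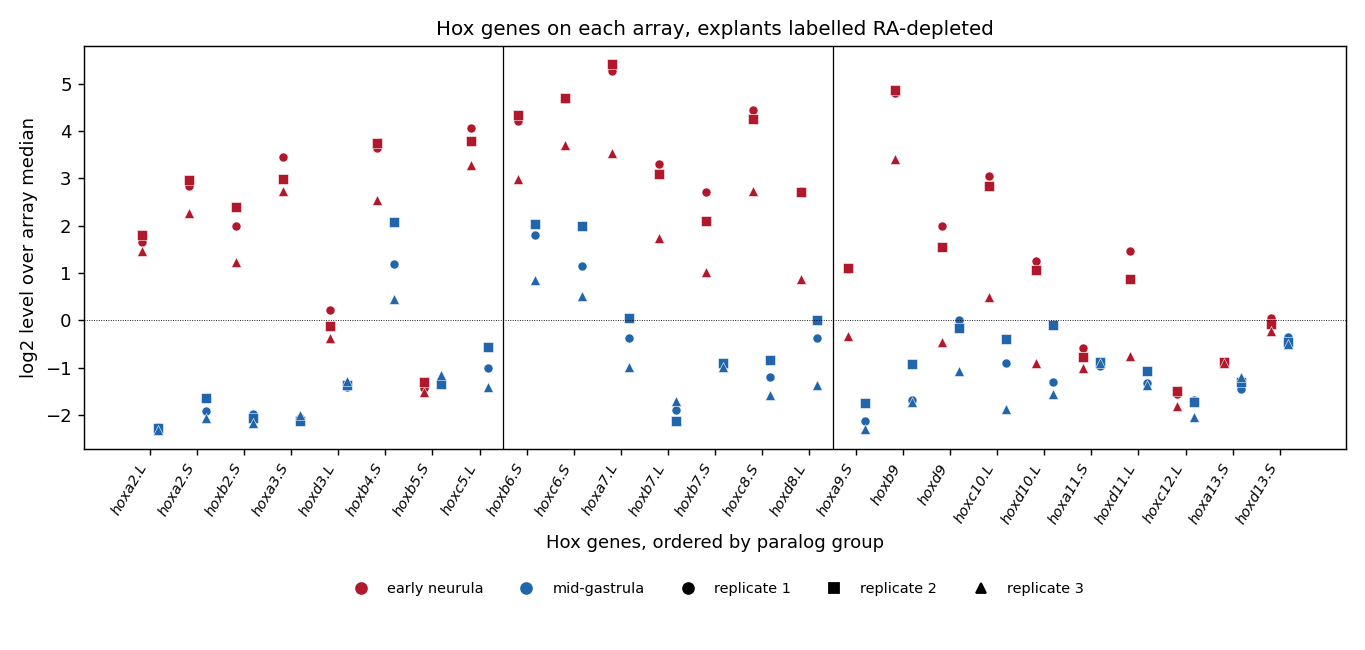
Level of each measured Hox gene on each array (log2 over the array median), early neurula in red left of mid-gastrula in blue, ordered by paralog group, with lines between paralogs 1 to 5, 6 to 8 and 9 to 13 and a marker shape per replicate number. Early neurula values lie above mid-gastrula values for most genes, and the triangles of replicate 3 are the lowest early neurula points in all 3 groups.

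The TALE homeobox genes, among them the Meis and Pbx-type cofactors of Hox proteins, did not follow the Hox genes as a group. Of 16 measured 5 rose (31.2%) and 7 fell (43.8%), with a median of -0.32. Meis2.L was higher by 2.19 and pknox1.L by 1.38, while the Iroquois genes irx1.S and irx2.L were lower by 1.29 and 1.25 and tgif2.S by 1.62. Irx1.S missed the threshold in 4 of the 6 fits that left out 1 array of these groups, with adjusted p of up to 0.115.

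Genes of RA metabolism and response were more often higher than lower. Of 32 measured 19 rose and 2 fell, with a median of 0.40, and 8 were dim at both stages. By at least 2-fold 4 of the 32 rose, near the 10.8% of all genes. Lrat.L, which stores vitamin A as retinyl esters, had 2.82, 2.5 and 1.82 at early neurula against -1.01, -0.80 and -1.67 at mid-gastrula (difference 3.54, SE 0.22, adjusted p = 3.79e-09). The orphan nuclear receptor nr2f2.L was higher by 3.40 (SE 0.30) and the RA receptor rara.L by 2.12 (SE 0.16). Further probe sets of rara.L differed by 0.58 (adjusted p = 0.00348) and 0.07 (adjusted p = 0.622), so its rise depends on the probe set. Rxrg.L, a retinoid X receptor, fell by 2.08 (SE 0.16). The retinal reductase dhrs3.L had 5.17, 5.14 and 5.53 at early neurula against 4.8, 4.34 and 4.33 (difference 0.79, SE 0.21, adjusted p = 0.00407).

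The enzymes that make and break RA gave smaller differences. Embryos of the RA-depleted label had received cyp26 mRNA, and what it added to the cyp26a1 values at either stage was not tested. Cyp26a1.S had 3.87, 3.95 and 3.06 at early neurula against 3.06, 2.82 and 2.85 at mid-gastrula, where the ranges met (difference 0.72, SE 0.23, adjusted p = 0.0139). Without early neurula array 1 its adjusted p was 0.0638, and without array 2 it was 0.0712. Cyp26a1.L had 5.32, 5.29 and 4.06 against 4.89, 4.63 and 4.09 (difference 0.35, SE 0.34, adjusted p = 0.385). Without early neurula array 3 its difference was 0.77 and it was called (adjusted p = 0.0424). Aldh1a2.L, the main RA-synthesising enzyme of trunk mesoderm, had 6.31, 5.86 and 6.06 at early neurula against 6.40, 6.28 and 6.38 at mid-gastrula by its brightest probe set (difference -0.27, SE 0.16, adjusted p = 0.165). Under repeated quantile normalization that probe set was called lower (difference -0.55, adjusted p = 0.00406). The other probe sets of aldh1a2.L disagreed in direction, from -2.35 (SE 0.24) to 2.11 (SE 0.13), both called. The gene as a whole thus has no single direction on this array. Whether they report different transcripts was not tested.

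Maternal transcripts were mostly lower. Of 47 measured genes of the maternal and germ plasm list 30 fell and 7 rose, with a median of -0.94. Mixer, which is zygotic, and vegt, which is both maternal and zygotic, stand among those that fell. The embryonic linker histone h1-8.S had 0.75, 1.05 and 1.09 at early neurula against 4.15, 4.31 and 3.63 at mid-gastrula (difference -3.07, SE 0.17, adjusted p = 8.34e-10). The members named as higher were the germ cell helicase ddx25.L (1.41), the ubiquitin ligase trim36.L (1.03) and the RNA-binding protein celf1.L (0.91). Pou5f3.2.L, an Oct4-type pluripotency factor of the gastrula, and foxd4l1.1.S, a forkhead factor of immature neural ectoderm, were lower by 4.49 and 4.2. Other genes among the 15 largest falls were bmp7.2.L (-5.0), satpb.L (-4.93), acod1lb.L (-4.08), ppp2r2b.L (-4.04), tspan1.S (-3.96) and tom1l1.L (-3.90). Further probe sets of acod1lb.L differed by 0.53 and -0.18, and neither was called.

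The cell cycle list leaned down, with 56 of 118 genes lower and 33 higher and a median of -0.26. By at least 2-fold 18 of the 118 fell and 10 rose, near the 13.8% and 10.8% of all genes. The largest fall in the list was that of wee2.L, a kinase that restrains Cdk1 in oocytes and early embryos, at -3.57. Ccnb1.S, a mitotic cyclin, had -1.44, -1.17 and -1.12 at early neurula against 1.59, 2.22 and 1.96 at mid-gastrula (difference -3.17, SE 0.19, adjusted p = 2.34e-09). Cyclin A1 (ccna1.L) was lower by 3.3. Ccng2.S, a cyclin associated with slowed proliferation, was higher by 1.97. The replication helicase subunits mcm5.S and mcm6.2.S were higher by 3.34 and 1.88, and mcm5.L had a difference of 0.03 (adjusted p = 0.912). Of 31 histone and histone chaperone genes 8 rose (25.8%) and 6 fell (19.4%), with a median of 0.09. The histone chaperone nasp gave opposite directions by homeolog, with nasp.L higher by 0.95 and nasp.S lower by 3.40.

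Cytosolic ribosomal protein genes rose as a block. Of 87 measured 86 were higher and none lower, with a median of 1.08 and 49 at 2-fold or more. The gene not called was rps15.S, named for that reason, with a difference of 0.16 (SE 0.08, adjusted p = 0.083). Rpsa.L, a small subunit protein, had 6.18, 6.07 and 5.86 at early neurula against 3.35, 4.06 and 3.45 at mid-gastrula (difference 2.42, SE 0.27, adjusted p = 1.98e-06). Rpl22l1.L and rps10.S were higher by 1.99 and 1.93. Without early neurula array 3, 86 were again higher. The genes of oxidative phosphorylation, the mitochondrial respiratory chain, rose in 40 of 86 cases and fell in 9, with a median of 0.38, and without early neurula array 3 these were 38, 5 and 0.43. Sdhb.S, a subunit of succinate dehydrogenase, was higher by 2.16 and ndufa13.L, of complex I, by 1.71, while sdha.S, also of succinate dehydrogenase, was lower by 1.47.

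**Figure D4:**
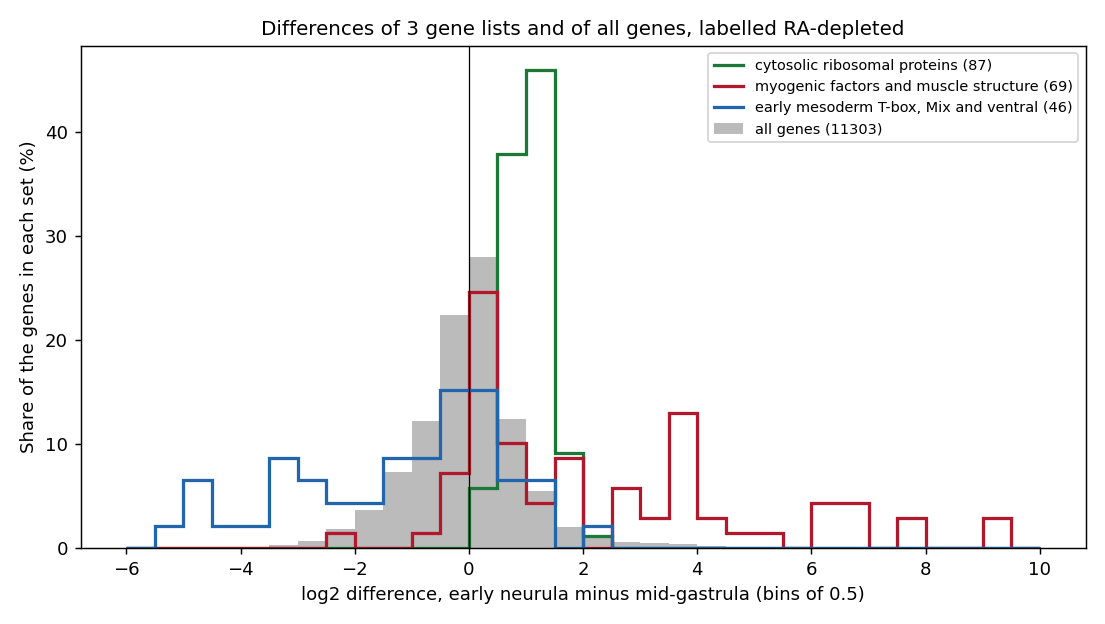
Distribution of the log2 difference (early neurula minus mid-gastrula) in bins of 0.5, as a share of each set in percent, for 87 ribosomal protein genes, 69 muscle genes and 46 early mesoderm genes over all 11303 genes in grey. Ribosomal protein genes lie in a narrow group about their median of 1.08, muscle genes reach to 9.28, and early mesoderm genes reach to -5.49.

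Signalling pathways moved in part. In the BMP and TGF-beta list 28 of 60 genes rose and 8 fell, with a median of 0.41. Tgfbi.L, an extracellular matrix protein, was higher by 4.45, the latent TGF-beta binding protein ltbp1.S by 3.29 and id4.S, a target of BMP signals, by 2.52. The largest fall was that of the BMP ligand bmp7.2.L, at -5.0, and the dorsal BMP-type ligand admp.S was lower by 1.72. In the Wnt list 21 of 69 rose and 17 fell, with tcf7l2.L, a nuclear effector, higher by 3.47 and the antagonist wif1.S by 2.97. In the FGF list 10 of 38 rose and 6 fell. The decoy-type receptor fgfrl1.L was higher by 3.41, and the immediate early genes fos.S and junb.L were lower by 2.98 and 2.94. In the Notch list 8 of 35 rose and 8 fell, with the ligand dll1.L lower by 1.14. The shares called in the Wnt, FGF and Notch lists were below the background in both directions.

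Extracellular matrix genes rose more often than the background, in 41 of 80 cases with 10 lower and a median of 0.36, and 29 rose by at least 2-fold. Besides col2a1.L they included hapln3.L, which links hyaluronan to proteoglycan, with 5.16, 5.21 and 4.86 at early neurula against -0.07, 0.11 and -0.03 at mid-gastrula (difference 5.07, SE 0.19, adjusted p = 2.45e-11), and matn4.L, a matrilin (difference 5.24, SE 0.29). The hyaluronan synthase has2.S fell by 1.63 (SE 0.28). Of 33 cadherin and catenin genes 12 rose (36.4%) and 7 fell (21.2%). N-cadherin (cdh2.L), the adhesion protein of neural and somitic tissue, was higher by 1.97 and cdh26.S by 3.06.

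Marker lists of several tissues, some of them mesodermal, were summed on each array. A sum is carried by its brightest members and does not show that a tissue was present. Dim at early neurula and at mid-gastrula were 17 and 44 of 69 muscle, 16 and 14 of 54 epidermal and 19 and 20 of 61 neural genes. For crest and placode genes these were 2 and 5 of 30, and for endoderm 4 and 3 of 31. For organizer genes they were 4 and 4 of 26, for blood 15 and 11 of 40 and for ciliated cells 11 and 9 of 51. The summed linear intensity of the muscle list lay between 15.62 and 15.86 (log2) at early neurula and between 12.11 and 12.22 at mid-gastrula. The same sum for the 54 epidermal genes lay between 15.73 and 15.79 at early neurula and between 15.86 and 16 at mid-gastrula, and 12 of these genes rose and 12 fell. For the 61 neural genes the sum lay between 13.78 and 13.96 against 14.91 and 15.01, with 16 higher and 20 lower. For the 30 neural crest and placode genes it lay between 14.52 and 14.63 against 14.29 and 14.42, with 15 higher and 4 lower. For the 31 endoderm genes it lay between 15.27 and 15.39 against 15.63 and 15.74, for the 26 organizer genes between 12.73 and 13.10 against 14.26 and 14.52, for the 40 blood and endothelial genes between 14.80 and 14.88 against 14.69 and 14.82, and for the 51 ciliated cell and ionocyte genes between 12.31 and 12.41 against 12.38 and 12.52. What epidermal, neural, crest, endodermal and ciliated cells added to the mesodermal results was not tested.

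Single markers of neural, epidermal, ciliated and crest tissue did not move together. Sox2.L, a factor of neural plate, had 2.34, 2.58 and 2.61 at early neurula against 1.47, 2.86 and 2.82 at mid-gastrula (difference 0.13, SE 0.41, adjusted p = 0.808). Zic2.L, a zinc finger factor of neural plate and its border, fell by 2.79, whereas nkx6-2.L, a factor of ventral neural progenitors, was higher by 2.5. A further probe set of nkx6-2.L differed by -0.09 and was not called. Keratin krt19.L was higher by 2.48 and its homeolog krt19.S lower by 1.16 (SE 0.29), and the epithelial claudins cldn6.1.L and cldn4.L were lower by 1.51 and 1.41. Foxj1.S, the regulator of motile cilia, had 0.46, 0.74 and 2.21 at early neurula against 2.80, 2.51 and 2.82 at mid-gastrula (difference -1.57, SE 0.49, adjusted p = 0.0125, and 0.0653 and 0.0501 without early neurula array 1 or 2), and foxj1.L was lower by 0.91. Ccno.L and ccno.S, needed for multiciliated cells, were lower by 3.34 and 1.88 and dim at early neurula, while the axonemal dynein gene dnai2.S was higher by 1.21. In the crest and placode list the median difference was 0.57. Dlx3.L, a homeobox factor of the placode border, was higher by 1.85 (SE 0.53, adjusted p = 0.00765), with stages that overlapped. Further probe sets of dlx3.L were higher by 0.93 and 0.74 without overlap, and dlx3.S was not called (0.58, adjusted p = 0.473). Snai2.S and sox9.S, a pair of the 4 members that fell, were lower by 1.89 and 2.54. Sox9.L had a difference of 0.95 (adjusted p = 0.0575, and 0.000216 with the replicate block).

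The genes that respond to cold, heat and stress, listed because the culture temperatures differed, were called about as often as the background. Of 63 measured 21 rose and 21 fell, with a median of -0.07. By at least 2-fold, 3 of the 63 rose and 13 fell, against 10.8% and 13.8% of all genes, so their large changes leaned down. Cirbp, the cold-inducible RNA-binding protein, had 8.28, 8.36 and 8.26 at early neurula (14 °C) against 8.08, 8.05 and 8.06 at mid-gastrula (20 °C) for cirbp.S, a difference of 0.23 (SE 0.07, adjusted p = 0.0129). Cirbp.L differed by 0.17 (SE 0.06, adjusted p = 0.0225). The arrays did not overlap in either, and other probe sets of cirbp.S ran from -0.35 to 0.54. A further probe set of cirbp.L, less bright, had 3.99, 4.06 and 4.14 at early neurula against 2.74, 2.58 and 2.92 at mid-gastrula, a difference of 1.32 (SE 0.16, adjusted p = 5.17e-06), so the size of the change depends on the probe set. Under repeated quantile normalization the differences of the brightest probe sets were 0.06 and 0.12 and neither passed. Among 21 genes often used as references 9 rose and 6 fell, with gapdh.S higher by 2.30, hprt1.L by 2.35 and ppia.L by 1.02, and with pgk1.L lower by 1.34. A further probe set of ppia.L was lower by 0.41.

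Homeologs did not always move together. Of 2009 pairs with both homeologs measured, 902 were called on both, and in 196 of these the homeologs went opposite ways. Both rose in 365 pairs and both fell in 341, and across pairs the differences correlated at r = 0.50, with genes that are not independent replicates. Among the named genes gapdh.S was called higher and gapdh.L was not called (0.28, adjusted p = 0.445, and 0.0459 with the replicate block, where it passed). Snai2.S fell while snai2.L, dim at mid-gastrula, was higher by 0.68 (SE 0.19), and pax3.S rose by 1.25 while pax3.L fell by 1.34. For pax3.L further probe sets ran from -0.93 to 2.04, so its direction depends on the probe set.

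The change with stage was next set against that in explants labelled control, as the difference between the changes (RA-depleted minus control) in the same fit. Of 32475 probe sets 20 were called (0.0616%), 19 of them with the more positive change under the RA-depleted label and 1 with the less positive. An unadjusted p under 0.05 was met by 907 of the 32475 probe sets. That is a smaller share than the 0.05 that would pass if no change differed between the arms. With the replicate number as a block 54 probe sets were called, 46 more positive and 8 less, with all 20 among them. The Hox and muscle lists held no gene called for this difference. Within the 20, 8 genes with a symbol were called by their brightest probe set.

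Sema3fl.S, a secreted semaphorin-type guidance cue, gave the largest such difference among them. It had 2.66, 2.32 and 2.97 at early neurula against -0.97, -0.99 and -0.88 at mid-gastrula under the RA-depleted label, a change of 3.60, and a change of 1.19 under the control label. The changes differed by 2.41 (SE 0.23, adjusted p = 0.000426). Fgfr3.L, an FGF receptor, had 1.75, 1.27 and 1.90 against 0.29, 0.03 and 0.30 under the RA-depleted label (change 1.43), and a change of -0.23 under the control label, a difference of 1.66 (SE 0.21, adjusted p = 0.00574). Its homeolog fgfr3.S was lower with stage, by 0.50 (SE 0.09) under the RA-depleted label. Spam1.L, a hyaluronidase gene, was the single one of the opposite sign: it had 0.70, 0.27 and -0.08 at early neurula under the RA-depleted label, where its change was 2.86, and a change of 5.19 under the control label (difference -2.33, SE 0.39, adjusted p = 0.0428). At mid-gastrula it was dim on the arrays of both arms, with -2.56 ± 0.06 under the RA-depleted label and -2.54 ± 0.01 under the control label (SD, n = 3 each). Hapln3.S, a homeolog of the hyaluronan link gene, was called on a pair of probe sets other than its brightest, with differences of 2.56 (SE 0.38) and 1.24 (SE 0.14). Both probe sets were dim at mid-gastrula under the RA-depleted label, with means of -2.32 and -2.11. The brightest probe set of hapln3.S, also dim there (-1.94), differed by 0.61 (SE 0.18, adjusted p = 0.776). Vcan.L, the matrix proteoglycan versican, was likewise called on a probe set other than its brightest (difference 1.27, SE 0.19, adjusted p = 0.0191).

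**Figure D5:**
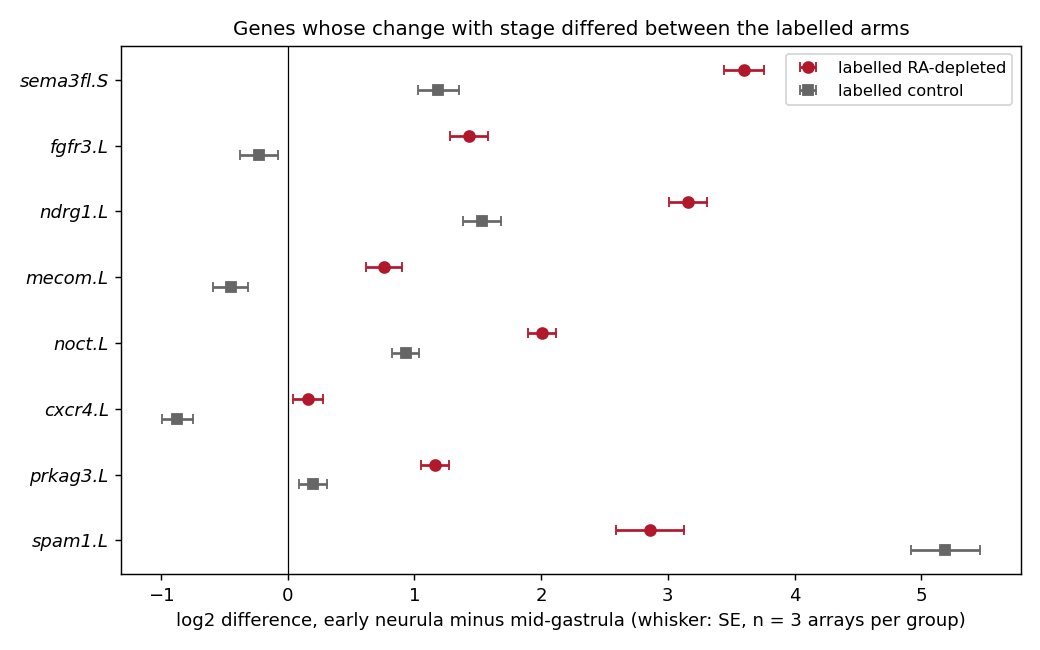
Change with stage (log2, early neurula minus mid-gastrula, with its SE, n = 3 arrays per group) under the RA-depleted label (red circles, upper of each pair) and the control label (grey squares) for the 8 genes called for a difference between the arms. The RA-depleted change is the more positive for 7 of the 8 genes, and spam1.L has the less positive one, 2.86 against 5.19.

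Further panel genes had unequal changes that did not pass this test. Dhrs3.L changed by 0.79 under the RA-depleted label and by -0.73 under the control label (difference 1.52, SE 0.29, adjusted p = 0.12, and 0.0582 with the block). Lhx1.L changed by -0.60 and by -2.25 (difference 1.65, SE 0.39, adjusted p = 0.379). Tbxt.S changed by -2.55 and by -1.48 (difference -1.06, SE 0.31, adjusted p = 0.776), and was called with the block at adjusted p = 0.0337. For the brightest probe set of cyp26a1.S, whose level opposes the labels, the changes were 0.72 and -0.49 (difference 1.21, SE 0.32, adjusted p = 0.605). A further probe set of cyp26a1.S, whose level was higher under the RA-depleted label, gave a difference of -0.01 (SE 0.42).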

How the data were processed

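The deposited table holds 1 value per probe set and array for 18 Affymetrix Xenopus laevis arrays, each hybridised with biotinylated cRNA (6 µg of total RNA at the start). The values are log2 intensities that the authors obtained by RMA (affy), per the submitters' processing notes. Tool versions, and which arrays were normalized jointly, are not given in the sources used here. The 160 control probe sets were left out, each array's median was subtracted, and 32475 probe sets were tested. The platform annotation gave 15495 of them 1 symbol, 279 several and 16701 none. Of those with 1 symbol, 15384 matched the RefSeq gene table, and 2 symbols were updated. For 2702 genes with several probe sets the one with the highest mean stood for the gene.

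A mean per group was fitted over all 18 arrays by lmFit and eBayes of limma 3.58.1 under R 4.3.3, so the 6 groups shared 1 estimate of spread, and p was adjusted over all probe sets. SE is limma's. The fit was tested on simulated data with independent errors, no replicate effect and most probe sets unchanged between the stages. That test therefore does not cover the pairing by replicate number described below, nor changes as widespread as those found here. The number of arrays limits the precision. Nothing in the labels says that replicates came from separate cultures or clutches, so p-values measure the spread between these samples.

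To check whether replicate numbers pair the samples, deviations from the group means were correlated: arrays of the 2 stages with the same number gave r of 0.53, 0.52 and 0.48 and others -0.33 to -0.19, so the numbers were taken to pair the samples. The fit without the block is given first.

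Named by rule were 205 genes: the 15 largest called changes per direction with stages that did not overlap, 3 called members per direction of each of 31 lists, up to 8 per direction for the difference between arms, and a panel of 26 names, of which 25 were measured, as 35 genes. Homeologs and further probe sets were given for part of the named genes. Other named genes also had further probe sets that were not called, among them cdh2.L, celf1.L, cldn4.L, gata4.L, hes7.1.L, ltbp1.S, smad2.L and tcf7l2.L. The members and lists were chosen with earlier results of these data known. Plots used matplotlib 3.10.9 (Python 3.11.15).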

Additional observations from a re-analysis of the deposited data

Results flagged for a closer look

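The genes below are singled out because their change between mid-gastrula and early neurula differed between explants labelled RA-depleted and explants labelled control by limma's test of that difference. With the levels of the brightest cyp26a1.S probe set opposed to the labels, the signs hold for the labels as deposited.

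Sema3fl.S, the semaphorin-type gene, differed by 2.41 (adjusted p = 0.000426), and passed in every alternative but the 2-fold minimum (0.109). That alternative tests whether a difference exceeds 2-fold. Fgfr3.L differed by 1.66 and ndrg1.L, a gene that responds to stress and differentiation, by 1.62 (SE 0.21 and adjusted p = 0.00574 for each); both were lost with the 12 arrays of these stages alone (0.101 and 0.129) and under the 2-fold minimum.

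Ndrg1.L had 0.27, 0.12 and 0.81 at early neurula under the RA-depleted label, against -1.17 ± 0.27 under the control label (SD, n = 3). Mecom.L, a zinc finger factor expressed in the pronephros, differed by 1.22 (SE 0.19, adjusted p = 0.0307). Its changes were 0.76 under the RA-depleted label and -0.45 under the control label, with means below the array median at both stages in both arms. A further probe set of mecom.L differed by 0.62 (SE 0.16, adjusted p = 0.503, and 0.189 with the block) and was not called. Noct.L, a clock-linked gene, differed by 1.08 (SE 0.16, adjusted p = 0.0213; under the RA-depleted label it was higher by 2.01 with stage and its homeolog noct.S lower by 0.35), cxcr4.L, a chemokine receptor, by 1.03 (SE 0.17, adjusted p = 0.0477), and prkag3.L, a subunit of the energy-sensing kinase AMPK, by 0.95 (SE 0.16, adjusted p = 0.0428). Cxcr4.L was not called with stage under the RA-depleted label (change 0.16, adjusted p = 0.291), and its change under the control label was -0.87. Spam1.L differed by -2.33 (SE 0.39, adjusted p = 0.0428). These last 5 each lost their call in 8 or more alternatives, most of them fits that left out 1 array, with no change of sign. With the replicate block all 8 passed, at adjusted p from 0.000412 to 0.0155. Like spam1.L, the genes ndrg1.L, noct.L and prkag3.L were dim at mid-gastrula under the RA-depleted label, with means of -2.76, -1.78 and -2.14. Under the control label they had -2.70, -1.67 and -2.05 at that stage, and prkag3.L had -1.84 at early neurula. The sizes of their changes thus depend on that floor.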

How the results depend on the processing

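The count of probe sets called between the stages, 19163, lay between 16682 and 19827 with only the 6 or the 12 arrays concerned, deposited scaling, repeated quantile normalization, trended variance, array weights and leaving out probe sets of several transcripts. It was 21650 with the replicate block, 21343 with a random block and 12978 after a filter on dim probe sets, and leaving out 1 array gave 17389 to 18049 (9523 to 10048 higher, 7775 to 8007 lower). That filter, which tested 18223, left 6339 higher and 6639 lower, and repeated quantile normalization gave 9102 higher and 9784 lower, so the excess of higher over lower calls turned under both. The 2-fold minimum, limma's test of whether a change exceeds 2-fold, left 3387 (1794 higher, 1593 lower). It is stricter than the 2-fold counts of the Results, which took called genes with a measured change of at least 2-fold. The 20 probe sets called for the difference between the arms were 4 with only the 12 arrays, 54 with the replicate block, 47 with a random block, 8 after the dim filter, 1 with the 2-fold minimum and 8 to 35 when 1 array was left out; the cause was not tested.

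Among named genes 3309 of the alternative values kept direction and call, 102 lost the call, 15 gained it and 3 changed sign, in genes not called: tal1.S (-0.06 under repeated quantile normalization, -0.02 to 0.09 when 1 array was left out) and sox2.L (-0.33 without mid-gastrula replicate 1, up to 0.37 without another array). Calls also ended on leaving out 1 array for meis3.S (without early neurula replicate 3, adjusted p = 0.0721), hes7.2.L, uqcrc2.S, nr2f1.S and cirbp. For genes with several probe sets, their mean called 1764 against 1816, 1482 in the same direction and 26 in opposite ones. The median over all genes was 0.02, and -0.07 under repeated quantile normalization. Without early neurula replicate 3, an alternative added after the data were seen, 60 of 62 list counts stayed within 1.5 times; genes lower were 1 against 2 in the RA list and 5 against 9 for oxidative phosphorylation.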

Other observations

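Homeologs moved apart most in genes outside the lists, chosen here after their values were seen. Rfk.S, the kinase that makes flavin mononucleotide, was higher at early neurula by 3.28 while rfk.L was lower by 2.30. Higd1a.L, a mitochondrial protein induced by low oxygen, was higher by 2.87 while higd1a.S was lower by 2.15. Qrich1l.L was higher by 2.80 while qrich1l.S was lower by 2.23. In each case both homeologs were called by limma.

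Genes called for the difference between the arms with the replicate block and not without it included mmp13.S, a collagenase, which changed by 2.63 under the RA-depleted label and by -0.38 under the control label (difference 3.00, adjusted p = 0.0562 without the block and 0.00669 with it). The nuclear receptor nr5a2.S changed by 3.70 and 1.77 (difference 1.93, adjusted p = 0.0971 and 0.0254), and the Wnt modulator sfrp2.S by 0.66 and -0.86 (difference 1.52, adjusted p = 0.0648 and 0.0422). Among the 20 probe sets called without the block, the largest difference belonged to one without a symbol, which changed by 3.89 and 0.96 (difference 2.93, SE 0.18). These genes were chosen after their values were seen.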
